A study of Homo sapiens with 4 samples.

Results

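The IGFL locus is a stretch of human chromosome 19 that holds the 4 genes of the insulin-like growth factor-like family, IGFL1, IGFL2, IGFL3 and IGFL4, and a long non-coding RNA gene listed in the files as AC006262.5. Its Ensembl identifier, ENSG00000268621, now carries the symbol IGFL2-AS1. These 5 genes were taken by name from the gene tables, which list 29387 genes in all 4 libraries. Of the 5, 4 are listed in every library and 2, AC006262.5 and IGFL3, had enough reads to pass a filter on low counts that left 14231 genes. The locus was selected on the measured counts themselves: earlier results of these data showed AC006262.5 higher in the invasive libraries. Its difference between invasive and control libraries, and that of the 4 IGFL genes beside it, is therefore given as a description with no test.

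The libraries come from U87, an established human glioblastoma cell line. Its parental cells had a week to invade organotypic slices, which are living brain sections in culture, under a neural stem cell medium to which FGF and EGF were added. The highly invasive populations (invasive 1 and invasive 2, which the labels call clones) and the poorly invasive populations (control 1 and control 2) were isolated from those slices, grown on in culture for a few days and sequenced as polyadenylated, strand-specific mRNA libraries. All 4 populations therefore share the line, the slices and the medium, and each is represented by 1 library. The series' design text assigns control 1 to invasive 1 (pair 1) and control 2 to invasive 2 (pair 2), and calls the populations independently derived. A spread over the 2 libraries of a group is all the replicate error there is.

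IGFL proteins are small secreted proteins with conserved cysteines, related in fold to the insulin-like growth factors. Human IGFL1 and IGFL3 bind IGFLR1, a cell-surface receptor that resembles receptors of the tumour necrosis factor family. IGFL1 is best known from inflamed skin, where keratinocytes make it. IGFL2-AS1 is a long non-coding RNA, a class of transcripts that encode no known protein, and its name places it on the strand opposite to IGFL2.

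On GRCh38, the build named in the submitters' processing notes, the locus runs over 191 kb, from 46039748 to 46231243 of chromosome 19. IGFL4 (46039748 to 46077118) and IGFL3 (46120071 to 46124674) lie on the reverse strand. IGFL2 (46143106 to 46161299) and IGFL1 (46229752 to 46231243) lie on the forward strand. AC006262.5 occupies 46189166 to 46203083 on the reverse strand, between IGFL2 and IGFL1. In GENCODE 29, whose spans for all 5 genes are the ones in the files, it does not overlap the span of IGFL2. RefSeq draws IGFL2 wider, from 46078513 to 46215362, which takes in the non-coding gene.

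**Figure D1:**
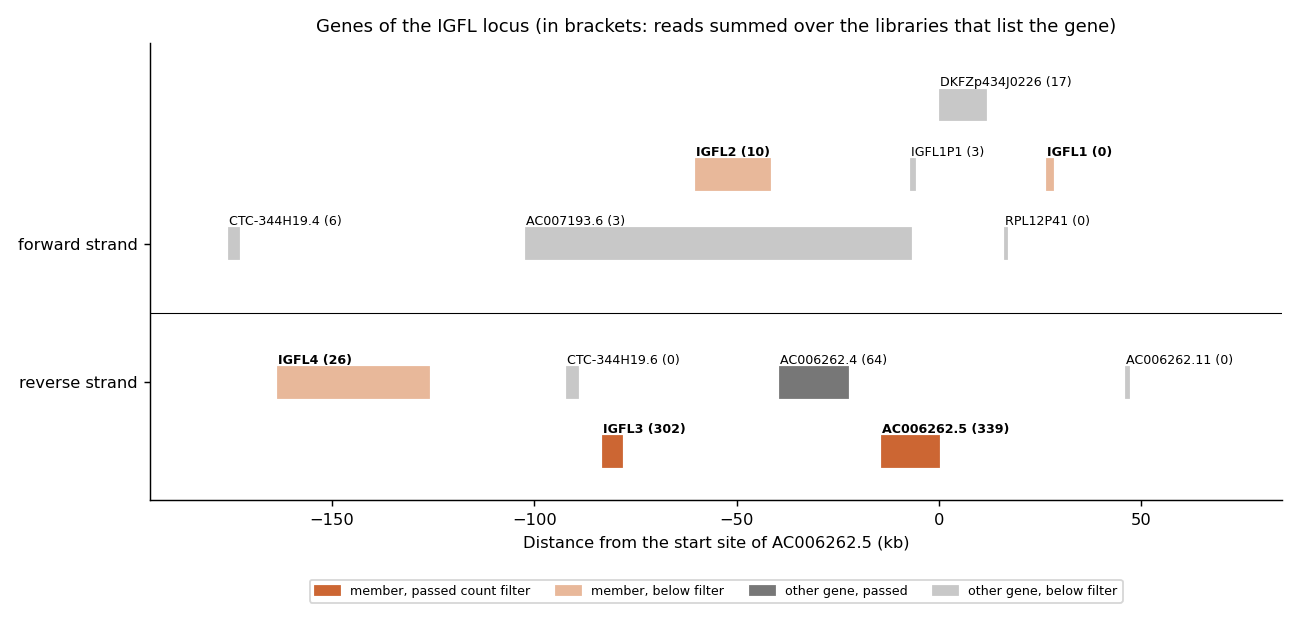
Map of the locus: boxes show gene spans by distance in kb from the start site of AC006262.5, with forward-strand genes above the line and reverse-strand genes below it, and in brackets the reads summed over the libraries. AC006262.5 (339 reads) and IGFL3 (302 reads) have IGFL2 (10 reads) and AC006262.4 (64 reads) between them.

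GENCODE 29 gives AC006262.5 6 transcripts, whose merged exons cover 1751 bases. The shortest of them is shown because the gene is the one that differed most in these data. The counts are per gene and do not say which transcript was present. The transcript has 294 bases in 3 exons of 195, 35 and 64 bases. The capitals mark its middle exon (46198408 to 46198442), which 3 of the 6 transcripts hold in exactly this form and 5 overlap. All 6 overlap the first exon.
IGFL2-AS1: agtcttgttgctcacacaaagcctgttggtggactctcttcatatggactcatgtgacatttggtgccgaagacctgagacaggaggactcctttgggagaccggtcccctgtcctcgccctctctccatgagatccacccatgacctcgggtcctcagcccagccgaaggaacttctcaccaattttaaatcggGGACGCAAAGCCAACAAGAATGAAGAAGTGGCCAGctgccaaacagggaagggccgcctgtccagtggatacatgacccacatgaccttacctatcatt

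No exon base of AC006262.5, IGFL2, IGFL3 or IGFL4 overlaps an exon of another gene on either strand in GENCODE 29. For IGFL1, 95 of 769 exon bases lie opposite an exon of another gene. Words of 50 bases were also compared across all GENCODE 29 transcripts on both strands. For AC006262.5, 0 of its 1749 words occurred in a transcript of another gene, and likewise 0 of 613 for IGFL3, 0 of 2422 for IGFL2 and 0 of 3722 for IGFL4. Nothing read here states the strand setting of the authors' counting. The overlaps above cover annotated exons only. The span of AC007193.6 on the forward strand (46101122 to 46196218) runs across IGFL3 and part of AC006262.5, with at most 2 reads in any library. What the setting does to the counts of these genes was not tested.

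AC006262.5 was nearly silent in both control libraries and clearly detected in both invasive libraries. It had 9 reads in control 1 and 10 in control 2, against 146 in invasive 1 and 174 in invasive 2. On the CPM scale, the usual scaling of counts to library size, the controls stood at 0.505 and 0.647, the invasive libraries at 9.44 and 12.6. Libraries of the same group lay close together. The mean was 0.576 ± 0.101 CPM for controls against 11.01 ± 2.22 for invasive populations (SD, n = 2 per group).

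Within pair 1 the CPM of AC006262.5 was 18.7 times as high in the invasive library (95% interval 9.58 to 41.7). Within pair 2 it was 19.4 times as high (10.3 to 41.2). These exact intervals cover the counting error of reads only, and they overlap almost wholly: no difference between the pairs was detectable at this depth. A model over all genes with the pair as a block gave AC006262.5 a log2 fold change of 4.22 ± 0.29 (SE). That was the highest of the 14231 fitted values and the highest of 610 long intergenic non-coding genes among them, where the next stood at 3.10. By the log2 difference within a pair, the gene ranked 1 in pair 1 and 4 in pair 2. It was chosen because it was higher in the invasive libraries, which largely fixes these ranks, so nothing is read from them.

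IGFL3 was the only member of the protein family with more than a few reads, and it too was higher in the invasive library of each pair. Pair 1 gave it 20 reads in the control and 90 in the invasive library, pair 2 gave 56 and 136. These correspond to 1.12, 5.82, 3.63 and 9.83 CPM. On a ratio scale, control 2 lay nearer to invasive 1 than to control 1. The mean was 2.37 ± 1.77 CPM for controls against 7.83 ± 2.84 for invasive populations (SD, n = 2 per group).

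The ratio of invasive to control CPM of IGFL3 was 5.18 in pair 1 (95% counting interval 3.17 to 8.89) and 2.71 in pair 2 (1.97 to 3.77). The blocked model gave a log2 fold change of 1.81 ± 0.30 (SE), which ranked 78 among 14231. By the difference within a pair, IGFL3 ranked 31 in pair 1 and 269 in pair 2. IGFL3 was also chosen with this contrast known, so its ranks are description only. The size depends on which control is used: the log2 fold change was 1.10 without control 1 and 2.76 without control 2, in fits with no block. For AC006262.5 the same fits gave 4.06 and 4.39.

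Of all genes that passed the filter, 164 were at least 2-fold higher in both pairs, which is 1.15% of them. In the blocked model, 0.239% of them were called higher and 0.0351% lower (adjusted p under 0.05). Both members that passed the filter are among the 164, which their choice largely fixes, so nothing is read from it. The median log2 fold change over all 14231 genes was 0.01.

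**Figure D2:**
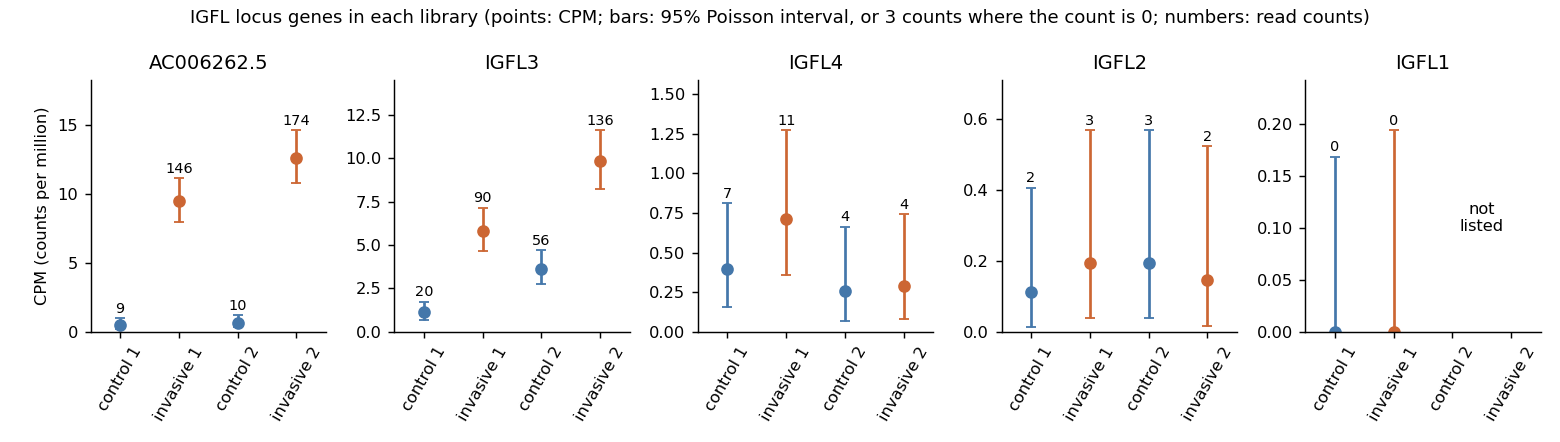
CPM of each of the 5 genes by library, with exact 95% Poisson intervals as bars (up to 3 counts where the count is 0) and read counts printed above them. Each panel has its own axis from 0. Controls are blue and invasive libraries orange. The intervals of AC006262.5 do not meet between the groups, which its choice largely fixes. Those of IGFL3 meet in control 2 (up to 4.709 CPM) and invasive 1 (from 4.679 CPM). The intervals of IGFL4 and IGFL2 overlap across all 4 libraries.

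**Figure D3:**
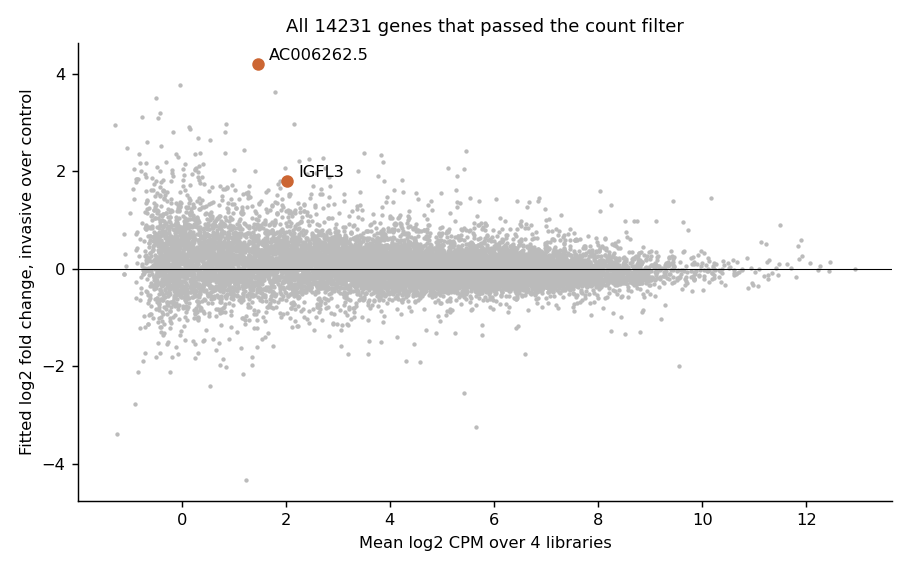
Fitted log2 fold change (invasive over control) of all 14231 genes against their mean log2 CPM. AC006262.5 lies above every other gene at 4.22, a place that its choice largely fixes. IGFL3 lies at 1.81 among the higher genes of similar abundance.

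The other 3 family members were at the edge of detection. IGFL4 had 7 control and 11 invasive reads in pair 1, and 4 of each in pair 2. IGFL2, the gene that the non-coding RNA is named for, had 2 control and 3 invasive reads in pair 1, and 3 and 2 in pair 2. Neither shows a difference that counting error would not cover. The ratio of invasive to control CPM of IGFL4 was 1.81 in pair 1 (95% counting interval 0.641 to 5.51) and 1.12 in pair 2 (0.208 to 5.996). For IGFL2 the ratios were 1.73 (0.198 to 20.7) and 0.744 (0.0622 to 6.50). All 4 intervals include no change, and they are wide: that of IGFL2 in pair 1 also includes a ratio as large as that of AC006262.5.

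IGFL1 had 0 reads in control 1 and in invasive 1, which allows a level of up to 0.168 and 0.194 CPM (3 counts, counting error only). The pair 2 tables used here do not list it, so it was not analysed in that pair.

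Levels of different genes can be compared only per length, so CPM was divided by the merged exon length in kb. On this scale AC006262.5 stood at 0.288 and 5.39 in control and invasive library of pair 1, and at 0.370 and 7.19 in those of pair 2. IGFL3 stood at 1.70, 8.79, 5.48 and 14.9. Over merged exons, IGFL3 thus had the highest value of the locus per kb in each of the 4 libraries, with AC006262.5 next. On this scale counting intervals of these 2 genes do not meet in any library, while those of AC006262.5 and IGFL4 overlap in both controls. The order of IGFL3 and AC006262.5 rests on the length used. Single transcripts of AC006262.5 have 294 to 1037 bases against 1751 merged, and a shorter length would raise its values. The counts do not say which transcript was present, so that order is not settled. IGFL4 did not exceed 0.191 and IGFL2 did not exceed 0.0801 CPM per kb in any library, and their order is not resolved by these counts.

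By raw reads the leading gene of the locus differed between the groups. AC006262.5 made up 23.7% of the 38 reads of the 5 genes in control 1 (exact binomial 95% interval 11.4 to 40.2) and 13.7% of 73 in control 2 (6.77 to 23.8). It made up 58.4% of 250 reads in invasive 1 (52.0 to 64.6) and 55.1% of 316 in invasive 2 (49.4 to 60.6). IGFL3 held 52.6% and 76.7% of the control reads, but 36.0% and 43.0% of the invasive ones. The larger share of AC006262.5 in the invasive libraries follows from how it was chosen, and the intervals, which cover counting error only, are no test of it.

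Pair 2 was set against pair 1, a contrast that played no part in choosing the genes. IGFL3 was 3.23 times as high in control 2 as in control 1 (95% counting interval 1.91 to 5.68) and 1.69 times as high in invasive 2 as in invasive 1 (1.29 to 2.23). Over both groups its log2 difference between pair 2 and pair 1 was 1.12 ± 0.30 (SE), which did not pass (edgeR quasi-likelihood test, unadjusted p = 0.00824, Benjamini-Hochberg adjusted p = 0.206). AC006262.5 differed by 0.41 ± 0.26 between the pairs (adjusted p = 0.511 in the same test). In this comparison 0.0984% of all 14231 genes passed, and 0 of the 2 members did.

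Control 2 stands apart from the other libraries in inflammatory genes. A list of 10 was read because IGFL1 is known from inflamed skin: secreted cytokines and chemokines, the intracellular NF-kB regulators TNFAIP3 and NFKBIA, and the adhesion molecule ICAM1. Their summed level was 2341 CPM there against 119 in control 1, 169 in invasive 1 and 248 in invasive 2. Of the 10, 9 passed the filter and none passed the test of invasive against control (edgeR, 0 also at an unadjusted p under 0.05). Over all 14231 genes 0.274% passed and 18.2% had an unadjusted p under 0.05. All 9 fitted values were below 0, with a median of −1.48. The pairs did not go the same way: the summed level was lower in the invasive library in pair 2 only. In pair 1 it was higher there (119 CPM in control 1, 169 in invasive 1). IL1B, CSF3 and CXCL8, which encode an interleukin, a granulocyte growth factor and a chemokine, had 572, 907 and 527 CPM in control 2. Single genes did not all follow the sum in pair 1. There IL1B had 15.9 CPM in the control and 12.1 in the invasive library, CSF3 25.8 and 21.1, and CXCL8 9.32 and 30.6. IGFL3 was higher in control 2 than in control 1, but its highest level was in invasive 2. The part of the inflammatory difference in the level of IGFL3 was not tested.

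Promoter sequences were examined because IGFL3 carried reads while its relatives carried few. RefSeq's promoter table (GRCh38.p14) holds 4 of the 5 genes and gives IGFL4 a start at each of 2 places. AC006262.5 is the gene without an entry. The IGFL2 start in that table lies inside the gene, whose span begins upstream at 46143106, or at 46078513 in RefSeq. The sequence before those upstream ends of IGFL2 was not searched. The 250 bases before the start of IGFL3 (chr19:46124689-46124938, reverse strand) are printed first, then those of IGFL2 (chr19:46147988-46148237, forward strand) and of the IGFL4 start nearer the coding part (chr19:46041003-46041252, reverse strand), for contrast. Capitals mark matches to TGANTCA, the motif bound by AP-1 factors, or GGAATG, the core of the motif bound by TEAD factors, searched on both strands.
IGFL3: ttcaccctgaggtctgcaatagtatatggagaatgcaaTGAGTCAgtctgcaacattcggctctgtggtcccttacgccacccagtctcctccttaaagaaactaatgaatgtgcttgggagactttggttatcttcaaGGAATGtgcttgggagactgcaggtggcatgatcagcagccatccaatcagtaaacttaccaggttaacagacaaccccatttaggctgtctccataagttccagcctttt
IGFL2: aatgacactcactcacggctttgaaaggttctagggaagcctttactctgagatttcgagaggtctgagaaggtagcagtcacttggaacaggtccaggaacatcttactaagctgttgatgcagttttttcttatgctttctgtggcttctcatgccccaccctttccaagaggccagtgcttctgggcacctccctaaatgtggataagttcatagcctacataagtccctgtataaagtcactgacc
IGFL4: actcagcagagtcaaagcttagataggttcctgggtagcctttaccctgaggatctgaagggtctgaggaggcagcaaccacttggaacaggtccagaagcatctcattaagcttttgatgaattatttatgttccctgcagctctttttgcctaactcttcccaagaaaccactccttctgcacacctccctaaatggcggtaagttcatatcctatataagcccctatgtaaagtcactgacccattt

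The IGFL3 window holds 1 match to TGANTCA, beginning 212 bases before the start, and 1 match to GGAATG, beginning 111 bases before it. The windows of IGFL2, IGFL1 and both IGFL4 starts hold neither, which for IGFL2 covers only the start inside the gene. Of 35116 promoter windows of this length, 6.57% hold TGANTCA, 11.9% hold GGAATG and 1.06% hold both. The IGFL2 and IGFL4 windows printed above are related, with 189 identical bases over an alignment of 256 (73.8%). The other 9 of the 10 pairs among the 5 windows had 47.1% to 52.0%, and IGFL3 reached 50.7% with IGFL2 and 52.0% with that IGFL4 window. A match to a motif describes letters, not binding.

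Neighbouring genes were examined to see whether the wider region moved with AC006262.5 and IGFL3. Within 500000 bases of the locus on either side, and between its members, the tables list 52 other genes, of which 18 passed the filter. None of the 18 passed the test (edgeR quasi-likelihood, 0 higher and 0 lower), 0 had an unadjusted p under 0.05, and DESeq2 called 0. Over all genes tested 0.274% passed, 18.2% had an unadjusted p under 0.05 and DESeq2 called 1.39% of those it gave an adjusted p. The log2 fold changes of the 18 ran from −0.30 to 0.65 with a median of 0.18. Small positive differences were common among them: 12 of 18 (66.7%) were higher in both pairs, against 33.4% of all genes tested.

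The nearest gene on the left that passed the filter was CCDC61, a coiled-coil protein gene, with a log2 fold change of −0.30 ± 0.25 (adjusted p = 0.561). On the right it was PPP5C, a serine/threonine phosphatase, with −0.06 ± 0.09 (adjusted p = 0.777). AC006262.4, another long non-coding gene on the same strand (46163893 to 46180647), lies between IGFL2 and AC006262.5. Its reads numbered 9 (control) and 13 (invasive) in pair 1, 24 and 18 in pair 2, a log2 fold change of 0.12 ± 0.44 (adjusted p = 0.908).

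A gene outside the naming rule was singled out after its values were seen. DKFZp434J0226, a processed transcript on the forward strand, begins 343 bases from the start site of AC006262.5 and is read in the opposite direction. Control and invasive reads were 2 and 5 in pair 1, 0 and 10 in pair 2. These counts are too few for the filter. The pseudogene IGFL1P1, which lies within an intron of AC006262.5 on the other strand, had 0 and 0 reads in pair 1, 1 and 2 in pair 2.

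**Figure D4:**
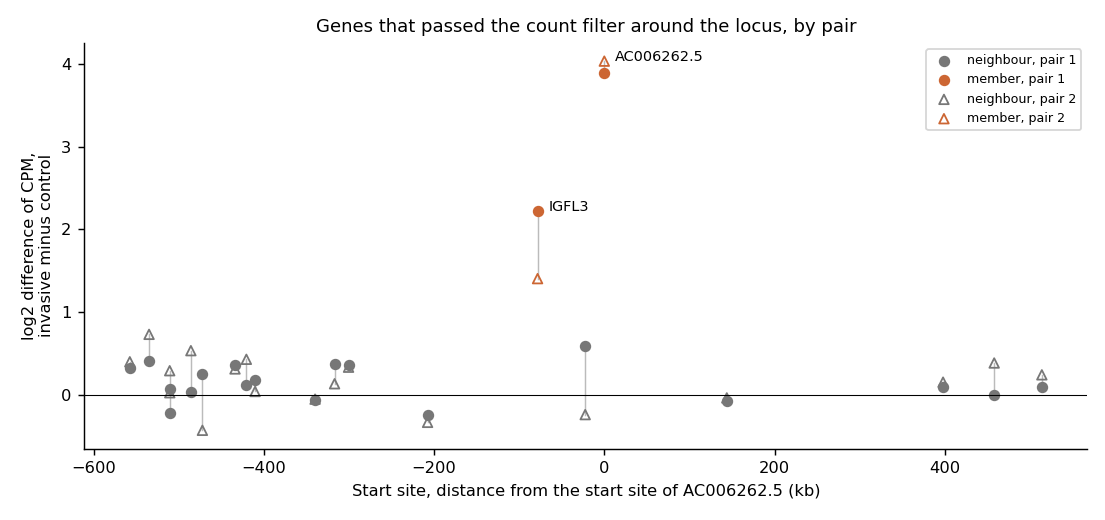
log2 difference of CPM (invasive minus control) in pair 1 (filled circles) and pair 2 (open triangles) for genes that passed the filter, by the distance in kb of their start sites from that of AC006262.5. Lines join the values of a gene. AC006262.5 (3.89 and 4.03) and IGFL3 (2.22 and 1.40) stand above all 18 neighbours, whose highest value is 0.73.

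The receptor IGFLR1, located elsewhere on chromosome 19, was as scarce as the weaker family members. It had 9 and 10 reads in control and invasive library of pair 1, 5 and 9 in those of pair 2, or 0.324 to 0.651 CPM, and did not pass the filter. These populations thus carried IGFL3 RNA with few reads of the receptor. At these counts a difference in IGFLR1 between the groups was not detectable.

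Other genes of the insulin-like system were examined as a list of 20 with IGFLR1, covering ligands, receptors, adaptors, binding proteins and the protease PAPPA. Of these, 13 passed the filter and 0 passed the test (edgeR quasi-likelihood, adjusted over all genes), against 0.274% of all genes. At an unadjusted p under 0.05, 2 were higher and 1 lower, a share near the 18.2% of all genes. DESeq2 called 2, against 1.39% of all genes with an adjusted p. The median log2 fold change of the 13 was 0.06, against 0.01 over all genes. The ligands IGF1 and IGF2 had at most 2 reads in any library. The receptors IGF1R and INSR had log2 fold changes of 0.06 ± 0.16 and −0.22 ± 0.15.

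The 3 largest differences in that list were in binding proteins, secreted proteins that hold insulin-like growth factors. IGFBP4 stood at 17.2 CPM in control 1 and 25.3 in control 2, against 95.04 in invasive 1 and 80.4 in invasive 2. It was thus higher in both pairs, as were 33.4% of all genes tested. It was also at least 2-fold higher in both pairs, as were 1.15% of them. Its log2 fold change was 2.05 ± 0.21 (adjusted p = 0.0573), just short of the threshold. IGFBP4 passed with DESeq2 (adjusted p = 3.01e-14) and with RLE size factors (0.0489), and over all alternatives its adjusted p ran from 1.37e-49 to 0.118. IGFBP3 and IGFBP7 had 1.39 ± 0.65 (adjusted p = 0.456) and 1.28 ± 0.21 (adjusted p = 0.115). IGFBP7 passed with DESeq2 (adjusted p = 1.56e-06) and in edgeR with no filter (5.85e-24), without control 1 (0.0327) and without invasive 1 (0.0452). PAPPA, which cleaves IGFBP4 and was named after its values were seen, had −0.61 ± 0.14 (adjusted p = 0.130) and passed in edgeR with no filter (1.64e-06). The fit with no filter called 760 genes higher and 693 lower, against 34 and 5 in the main test, so passing there says little.

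The genes whose pattern over the 4 libraries was nearest to that of AC006262.5 were found by the distance between log2 CPM values after each gene's mean was removed. They were CRYAB, a small heat shock protein (distance 1.20), SNCAIP, which encodes a partner of alpha-synuclein (1.36), MIR143HG, the host gene of a microRNA cluster (1.53), ELN, which encodes elastin (1.62), and LDB3, a protein of the muscle Z-disc (1.65). CRYAB was well measured, with 32 and 19 reads in controls 1 and 2, and 151 and 212 in invasive 1 and 2. SNCAIP, MIR143HG, ELN and LDB3 had at most 7 reads in either control. IGFL3 lay farther from AC006262.5, at 2.35. Likeness over 4 libraries describes these libraries only.

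IGFL3 had closer companions, named after their values were seen. DYDC2 lay at a distance of 0.18 but had only 1 and 6 reads in controls 1 and 2, and 12 and 16 in invasive 1 and 2. RPTN, which encodes repetin of the epidermal cornified envelope, lay at 0.36. Its reads were 34 and 79 in controls 1 and 2, and 123 and 156 in invasive 1 and 2. HSPB3, a small heat shock protein, lay at 0.36 and C5AR2, a complement receptor, at 0.45.

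**Figure D5:**
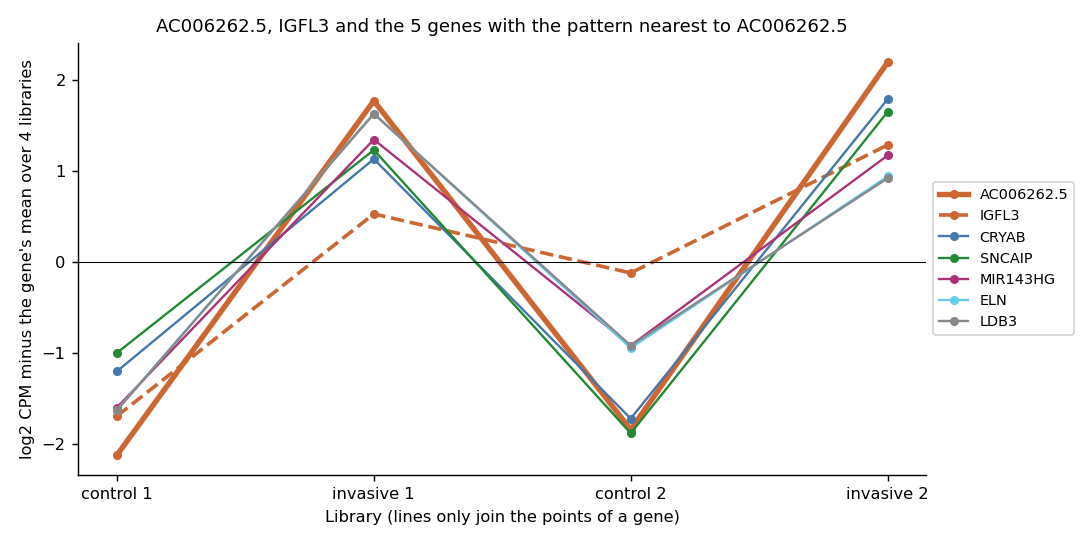
log2 CPM of AC006262.5, IGFL3 and the 5 genes nearest in pattern, each minus its own mean over the 4 libraries. In control 2, IGFL3 (dashed) lies close to its mean while the other 6 lines are low.

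Markers were read to see which cells the libraries hold. VIM and CD44, which mark mesenchymal glioma cells, had at least 7336 and 1554 CPM, while GFAP and SOX2, which mark many gliomas, had at most 4 and 1 reads. Of 7 epithelial and keratinocyte genes, read since IGFL genes are known from skin, KRT10 had 28.2 to 40.8 CPM and the summed level of the list was 30.8 and 34.2 CPM in controls and 32.0 and 43.5 CPM in invasive libraries. EPCAM, which also passed the filter, had 22 to 35 reads (1.42 to 2.26 CPM) and a log2 fold change of 0.47 ± 0.33. KRT5 had at most 5 reads, KRT14 at most 2, CDH1 at most 5 and TP63 at most 9. KRT1 had 0 in the pair 2 tables, which alone list it. AQP4, MOG, CLDN5 and P2RY12, which mark astrocytes, oligodendrocytes, endothelium and microglia, had 0 reads in every library. Other markers of these cells had some: PECAM1 of endothelium 7 to 17, MBP of oligodendrocytes 3 to 19 and CX3CR1 of microglia at most 2. Of the neuron markers, RBFOX3 had at most 2 reads. SYT1 had 74 to 134 and passed the filter, with a log2 fold change of −0.30 ± 0.27 (edgeR, adjusted p = 0.602). Of 6 glioma genes 4 passed the filter, and of 7 epithelial genes 2 did. None of these was called (edgeR, against 0.274% of all genes), with median log2 fold changes of −0.36 and 0.32. The glioma genes NES (−0.33 ± 0.12, adjusted p = 0.229) and CD44 (−0.40 ± 0.11, adjusted p = 0.158) had an unadjusted p under 0.05, and 0 of the epithelial genes did. In bulk RNA, more cells with a transcript and more transcript per cell cannot be told apart.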

How the data were processed

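Strand-specific mRNA libraries of 2 invasive and 2 control U87 populations were used, with 13829871 to 17817756 counts each. The authors deposited raw read counts per Ensembl gene, and a normalized score per gene rounded to whole numbers by a method that the labels and headers do not name; pair 2 scores cover 10252 genes. The submitters' processing notes list GRCh38 and, without roles, TopHat2 2.0.12, HTSeq, Bowtie, DESeq2 and bcl2fastq 1.8.4. The members and all lists were chosen with earlier results of these data known.

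From the counts, 29387 genes listed in all libraries were joined. CPM used library totals. Genes were kept by edgeR's filterByExpr (minimum count 10, total 15) and fitted with edgeR 4.0.16 in R 4.3.3: quasi-likelihood F test, two-sided, TMM factors, robust prior, pair as a block, Benjamini-Hochberg at 0.05. The block leaves 1 residual degree of freedom. The design text pairs the libraries, and same-numbered libraries deviated together across genes (r 0.283). Log2 differences within a pair used TMM factors and a prior count of 2. Libraries of a group were not duplicates (chi-square per degree of freedom 34.1 and 21.3). The fit was tested on simulated data. Alternatives were no replicate block, RLE factors, DESeq2 1.42.0, no filter, each library left out (without the block), other prior counts and the authors' score. Promoter windows were aligned globally with Biopython 1.88.

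Named genes were every member, neighbours past the threshold plus the nearest tested on each side, IGFLR1 and the 3 largest changes of the insulin-like list, and the 5 genes nearest in pattern to AC006262.5. Intervals and floors cover counting error only. IGFL1, IGFL2 and IGFL4 failed the filter or were not listed in pair 2 and have no fitted value.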

Additional observations from a re-analysis of the deposited data

How the results depend on the processing

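The log2 fold changes of AC006262.5 and IGFL3 kept their direction under every alternative run. With no replicate block they were 4.23 and 1.72, and the replicate block moved neither by more than the spread between pairs. They were 4.22 and 1.81 with RLE factors, 4.19 and 1.79 with no filter, and 4.23 and 1.86 with DESeq2. Leaving out each library in turn, in fits that also lack the block, gave 4.00 to 4.42 for AC006262.5 and 1.10 to 2.76 for IGFL3. The pairwise differences of AC006262.5 stayed between 3.68 and 4.11 in pair 1 and 3.73 and 4.21 in pair 2, the lowest with the reads of IGFL2 added. The authors' score was usable in pair 1 only.

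The number of genes called was far less stable. The main test called 34 higher and 5 lower genes, against 2 and 0 with no replicate block, 80 and 9 with RLE factors, 760 and 693 with no filter and 142 and 29 with DESeq2. Fits without each library in turn, which also lack the block, called 3 to 55 higher and 0 to 61 lower genes, and compare with the 2 and 0 of the fit with no block. Calls in the insulin-like list numbered 0 in the main test, 1 with RLE factors, 3 with no filter, 2 with DESeq2 and 0 to 2 with a library and the block left out. The cause was not tested. No locus neighbour was called in any of these fits. The difference of IGFL3 between the pairs, with alternatives chosen after seeing the data, passed with no filter (1.09, adjusted p = 0.00622 in edgeR) and not with RLE factors or DESeq2. IGFL1, IGFL2 and IGFL4 gave no main value to vary. With no filter, IGFL4 had 0.55 ± 0.74 and IGFL2 0.13 ± 1.35, values that depend on the prior count. Depth limits statements on these 3 genes and on IGFLR1.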
